A study of Mus musculus with 12 samples.

Results

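The platelet-derived growth factor (PDGF) family of the mouse consists here of 4 ligand genes (Pdgfa, Pdgfb, Pdgfc and Pdgfd) and 2 receptor genes (Pdgfra and Pdgfrb), 6 of the 37750 rows of the table, found by gene name. Levels are FPKM, in which fragments are divided by transcript length and by the mapped total of the library, so that different genes can be set side by side. The sources used here do not say whether the values were also scaled between libraries. Ad/NICD mice (129 x C57BL/6 background) carry a transgene for the Notch intracellular domain, the part of the Notch receptor that enters the nucleus and activates genes. The animals compared were 3 weeks old for white adipose tissue (WAT, 4 libraries) and 9 to 12 months old for liposarcoma (LPS, 8 libraries), a malignant tumour of the fat lineage. Both groups carry the transgene, and the sources used here do not give the promoter that drives it. WAT and LPS differ in age as well as in tissue, and the effects of age and tissue cannot be told apart. Nothing in the labels ties a library to an animal beyond the term biological replicate, so p-values measure the spread between these libraries.

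PDGF ligands are secreted dimers that bring together and activate receptor tyrosine kinases on neighbouring cells. The A, B and C chains bind the alpha receptor encoded by Pdgfra, and the B and D chains bind the beta receptor encoded by Pdgfrb. In vessels, endothelial cells release the B chain and pericytes, the cells that wrap small vessels, carry the beta receptor. In fat, the alpha receptor marks fibroblast-like progenitors of adipocytes.

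Pdgfra stands in a row that also bears the name of a microRNA, mmu-mir-7025. The microRNA hairpin (GRCm38, chromosome 5, 75176831 to 75176904, plus strand) begins in the exon of Pdgfra that 9 other exons precede (75176667 to 75176860) and runs into the following intron. A value of this row can therefore not be divided between the gene and the microRNA. The mature sequences of RefSeq are shown because they belong to the other name on the row. The 5p sequence (75176836 to 75176859) lies inside that exon, and the 3p sequence (75176878 to 75176899) lies past its end. They are printed with the seed (bases 2 to 8) in capitals.
mmu-miR-7025-5p: cGUGAGCUgaagcugguggcuccc
mmu-miR-7025-3p: cAGCACAAcuccagcucaccag

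RefSeq promoter windows on GRCm38.p6 were found for 4 of the 6 members (Pdgfa, Pdgfc, Pdgfd and Pdgfra). The 250 bases before the start are printed for Pdgfra and Pdgfd, the members whose level in every tumour was below that in every WAT library. Capitals mark the letters TGGGAA on either strand, the core of the site read by RBPJ, the DNA-binding partner of the Notch intracellular domain.
Pdgfra, chr5:75152001-75152250, plus strand: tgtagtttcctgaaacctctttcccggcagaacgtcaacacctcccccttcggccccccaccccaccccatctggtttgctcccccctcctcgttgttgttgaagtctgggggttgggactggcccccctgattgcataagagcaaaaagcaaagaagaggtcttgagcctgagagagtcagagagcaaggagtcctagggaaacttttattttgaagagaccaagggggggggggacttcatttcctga
Pdgfd, chr9:6168236-6168485, plus strand: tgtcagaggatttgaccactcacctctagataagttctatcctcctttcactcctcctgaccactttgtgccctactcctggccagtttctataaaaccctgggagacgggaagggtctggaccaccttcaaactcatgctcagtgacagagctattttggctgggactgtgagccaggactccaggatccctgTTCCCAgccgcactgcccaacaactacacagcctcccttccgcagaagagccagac
TGGGAA was found 1 time upstream of Pdgfd and 0 times upstream of Pdgfra and of Pdgfc. Of the 2 windows of Pdgfa, 1 held it. Of all 32817 windows of that length, 21.6% held it on either strand, and a match is a description of letters only.

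All 6 members differed between LPS and WAT in limma at an adjusted p below 0.05 on log2(FPKM + 1), 2 higher and 4 lower in LPS. Among the 14821 rows tested, 46% were called, 18.9% higher and 27% lower. In 4 of the members (Pdgfrb, Pdgfa, Pdgfra and Pdgfd) the ranges of the groups did not overlap, against 32.6% of all rows. The call for Pdgfb was narrow and was lost in 17 of 24 alternatives, and those for Pdgfrb, Pdgfra, Pdgfa and Pdgfd held in all 24.

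**Figure D1:**
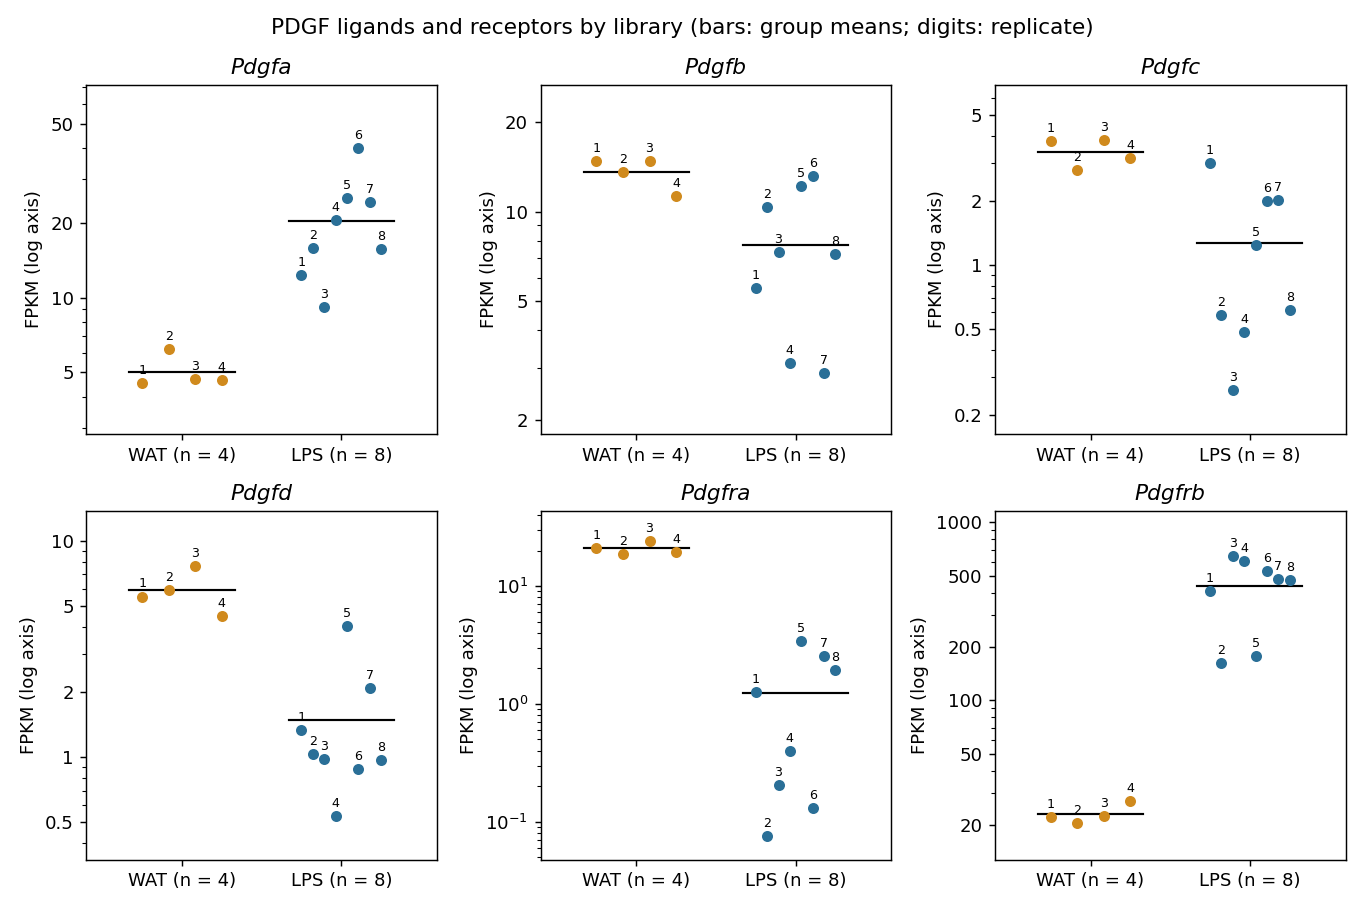
FPKM of each PDGF ligand and receptor gene (log axis) in the 4 WAT and 8 LPS libraries, with 1 point per library numbered by replicate and a bar at each group mean. Pdgfrb and Pdgfa lie higher in every tumour than in any WAT library, Pdgfra and Pdgfd lie lower, and the groups overlap for Pdgfb and Pdgfc.

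The libraries differed in ways that touch these values. Relative depth, approached through the lowest values of 2154 single-transcript genes, was 1 in LPS 1 and 2.60 in WAT 1, with the other libraries between them. For a transcript of the length of Pdgfra (6834 bases), 1 fragment was worth about 0.00529 to 0.0137 FPKM, below the lowest Pdgfra value of 0.0765 FPKM. The sum of 8 adipocyte marker genes was between 4325 and 5158 FPKM in WAT and at most 126 FPKM in LPS, where Lep, the gene of the adipokine leptin, was listed at 0 in LPS 3 and LPS 4. In bulk tissue, fewer cells of a type and less RNA per cell cannot be told apart. Skeletal muscle markers (5 genes) summed to 1754 and 1493 FPKM in WAT 1 and WAT 4, against 5.74 and 213 FPKM in WAT 2 and WAT 3. The highest such sum among the tumours was 450.2 FPKM, in LPS 8.

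Pdgfrb, the beta receptor gene (GRCm38, chromosome 18, 61045150 to 61085061, plus strand), had the largest difference of the members on log2(FPKM + 1). It measured 22.2, 20.3, 22.3 and 27.2 FPKM in WAT 1 to WAT 4. In LPS the lowest value was 162 FPKM, the median 477 FPKM and the highest 644 FPKM. The tumours formed separate clusters, with LPS 2 at 162 and LPS 5 at 176 FPKM and the other 6 between 410 and 644 FPKM, all far above WAT. Group means were 23.0 ± 2.95 FPKM (SD, n = 4) and 436 ± 181 FPKM (SD, n = 8), 19.0-fold apart. The log2 difference was 4.04 ± 0.36 (SE; limma adjusted p = 1.28e-06), place 36 among the 14821 rows ordered from the highest difference. By mean level Pdgfrb stood at place 110 of 37750 rows in LPS and 3329 in WAT.

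Pdgfra, the alpha receptor gene (chromosome 5, 75152292 to 75198215, plus strand, in the joined row), went the other way. Its values were 21.2, 18.8, 24.2 and 19.4 FPKM in WAT 1 to WAT 4, a narrow range. In LPS the lowest was 0.0765 FPKM, the median 0.826 FPKM and the highest 3.43 FPKM. LPS 5, LPS 7, LPS 8 and LPS 1 held 3.43, 2.54, 1.94 and 1.26 FPKM, and LPS 4, LPS 3, LPS 6 and LPS 2 held 0.397, 0.207, 0.131 and 0.0765 FPKM, so the tumours spread over a wide range that did not reach WAT. The mean fell from 20.9 ± 2.44 FPKM (SD, n = 4) in WAT to 1.25 ± 1.27 FPKM (SD, n = 8) in the tumours, and the WAT mean was 16.8 times that of LPS. The log2 difference was -3.48 ± 0.38 (SE; limma adjusted p = 7.67e-06). With a pseudocount of 0.1 in place of 1 it was -4.72 (limma adjusted p = 0.000309), past the 4.09 of Pdgfrb on that scale.

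The balance between the receptor genes differed by orders of magnitude. In WAT the genes stood at like levels, with 1.04, 1.08, 0.920 and 1.40 FPKM of Pdgfrb for each FPKM of Pdgfra in WAT 1 to WAT 4. In LPS that ratio was 51.4 at its lowest (LPS 5), 928 at its median and 4080 at its highest (LPS 6). Pdgfra made up 47.7% ± 4.37 (SD, n = 4) of the sum of both receptor genes in WAT and 0.414% ± 0.633 (SD, n = 8) in LPS. The difference in log2((Pdgfrb + 1)/(Pdgfra + 1)) between the groups was 7.52. Its two-sided exact permutation p was 0.00202, the smallest that 4 libraries against 8 allow (adjusted p = 0.00303 over 3 ratios). Every tumour stood above WAT in Pdgfrb and below it in Pdgfra, so this p was fixed by those values and adds nothing to them. Both receptor genes together gave 39.1 to 46.6 FPKM in WAT. The tumours held 162 to 644 FPKM of that sum.

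**Figure D2:**
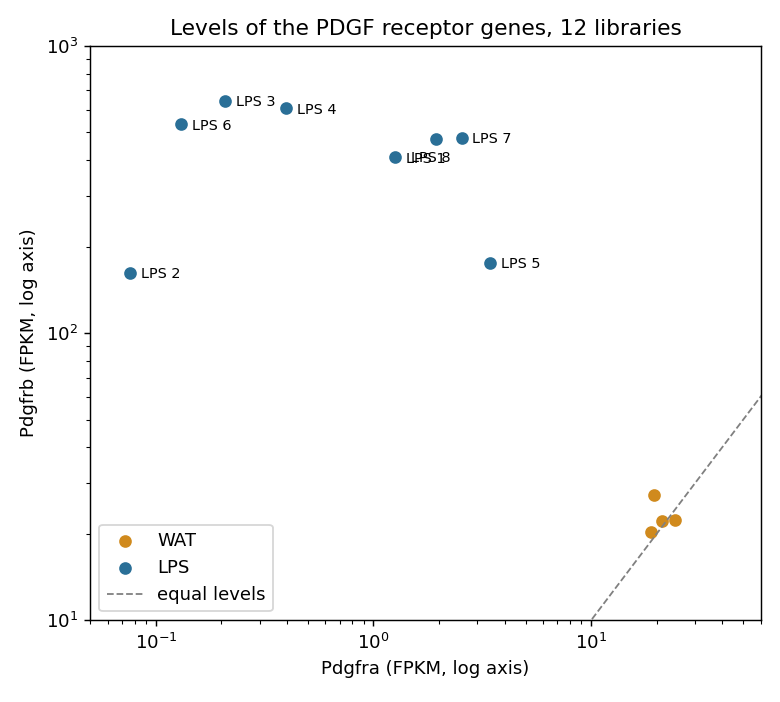
Pdgfrb against Pdgfra (FPKM, both axes logarithmic) in the 12 libraries, 1 point per library, with a dashed line where the levels are equal. The 4 WAT points lie near the line, and the 8 tumours lie far above it, with ratios from 51.4 in LPS 5 to 4080 in LPS 6.

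Among the ligand genes, Pdgfa alone was higher in the tumours. Pdgfa (chromosome 5, 138976014 to 138997370, minus strand) encodes the A chain, a ligand of the alpha receptor. WAT 1 to WAT 4 held 4.53, 6.21, 4.70 and 4.68 FPKM, and LPS held 9.19 FPKM at its lowest (LPS 3), 18.2 FPKM at its median and 39.7 FPKM at its highest (LPS 6). No tumour reached down to the WAT range. The means were 5.03 ± 0.794 (SD, n = 4) and 20.3 ± 9.61 FPKM (SD, n = 8), 4.04-fold apart, and the log2 difference was 1.71 ± 0.30 (SE; limma adjusted p = 0.000417). On the opposite strand the noncoding gene 6330403L08Rik (138995056 to 139000577) overlaps Pdgfa. Its own row held 1.69 to 1.90 FPKM (WAT) and 1.58 to 4.08 FPKM (tumours). The deposited locus of the Pdgfa row ran from 138976014 to 139000576, past the end of Pdgfa and over that gene. The libraries were stranded, but the sources used here do not say whether counting used the strand.

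Pdgfb (chromosome 15, 79995874 to 80014977, minus strand) encodes the B chain, which binds both receptors. Its WAT values, 1 to 4, were 14.8, 13.6, 14.8 and 11.3 FPKM. In the tumours it ran from 2.88 FPKM (LPS 7) over a median of 7.29 FPKM to 13.2 FPKM (LPS 6). LPS 5 and LPS 6, at 12.2 and 13.2 FPKM, lay inside the WAT range, and LPS 4 and LPS 7, at 3.11 and 2.88 FPKM, lay farthest below. The log2 difference was -0.88 ± 0.34 (SE; limma adjusted p = 0.0478). Pdgfb was not called when any one WAT library was absent, with a limma adjusted p of 0.107 (no WAT 1), 0.0927 (no WAT 2), 0.108 (no WAT 3) and 0.0687 (no WAT 4). The same held for 5 of the tumours, with 0.0707 (no LPS 1), 0.0603 (no LPS 3), 0.0681 (no LPS 4), 0.0606 (no LPS 7) and 0.0624 (no LPS 8).

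Pdgfc (chromosome 3, 81036416 to 81214040, plus strand) encodes the C chain, a latent ligand of the alpha receptor that must be cut to act. The values of WAT 1 to WAT 4 were 3.78, 2.78, 3.86 and 3.15 FPKM, and those of the tumours ran from 0.260 FPKM (LPS 3) over a median of 0.929 to 2.99 FPKM (LPS 1). Only LPS 1 lay inside the WAT range, and LPS 6 and LPS 7 stood at 1.99 and 2.02 FPKM. The log2 difference was -1.05 ± 0.29 (SE; limma adjusted p = 0.0102), and without both WAT 1 and WAT 4 the adjusted p was 0.0875. The opposite-strand gene Gm16000 was listed at 0.214 to 0.896 FPKM in WAT, and at most 0.857 FPKM in LPS.

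Pdgfd (chromosome 9, 6168584 to 6378850, plus strand) encodes the D chain, a latent ligand of the beta receptor. In WAT 1 to WAT 4 the gene stood at 5.53, 5.95, 7.66 and 4.48 FPKM, and in the tumours at 0.536 FPKM at its lowest (LPS 4), 1.01 FPKM at its median and 4.04 FPKM at its highest (LPS 5). LPS 5 came close to WAT 4, and LPS 7 followed at 2.09 FPKM, with the other tumours at 1.33 FPKM or less. The log2 difference was -1.56 ± 0.27 (SE; limma adjusted p = 0.000447), and the WAT mean was 3.98 times that of LPS. Values of Pdgfc, Pdgfd and Pdgfra in LPS lie near or below 1 FPKM, where log2(FPKM + 1) understates a change. Ddi1, a gene on the opposite strand within Pdgfd, was listed at 0.371 to 1.07 FPKM in WAT, and at most 0.677 FPKM in LPS.

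The sums of the 4 ligand genes overlapped between the groups, while their make-up differed. The WAT mean of the sum was 27.9 ± 3.09 FPKM (SD, n = 4; range 23.6 to 31.0), and the LPS mean was 30.8 ± 12.5 FPKM (SD, n = 8; range 17.8 to 55.8). The difference of the sums was not tested. Pdgfb was the leading ligand gene in every WAT library, with 47.6% to 51.6% of the sum, and Pdgfa was the leading one in every tumour, with 51.7% to 83.2%. For each FPKM of Pdgfb there were 0.307 to 0.457 FPKM of Pdgfa in WAT, while the tumours held 1.25 (LPS 3) to 8.43 FPKM (LPS 7). The difference in log2((Pdgfa + 1)/(Pdgfb + 1)) was 2.59 (two-sided exact permutation p = 0.00202, the smallest possible; adjusted p = 0.00303 over 3 ratios). For the latent ligands no such difference was called. Pdgfc over Pdgfd ran from 0.467 to 0.703 in WAT and from 0.265 (LPS 3) to 2.26 (LPS 6) in LPS, a log2 difference of 0.50 on the same scale (exact permutation p = 0.164).

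**Figure D3:**
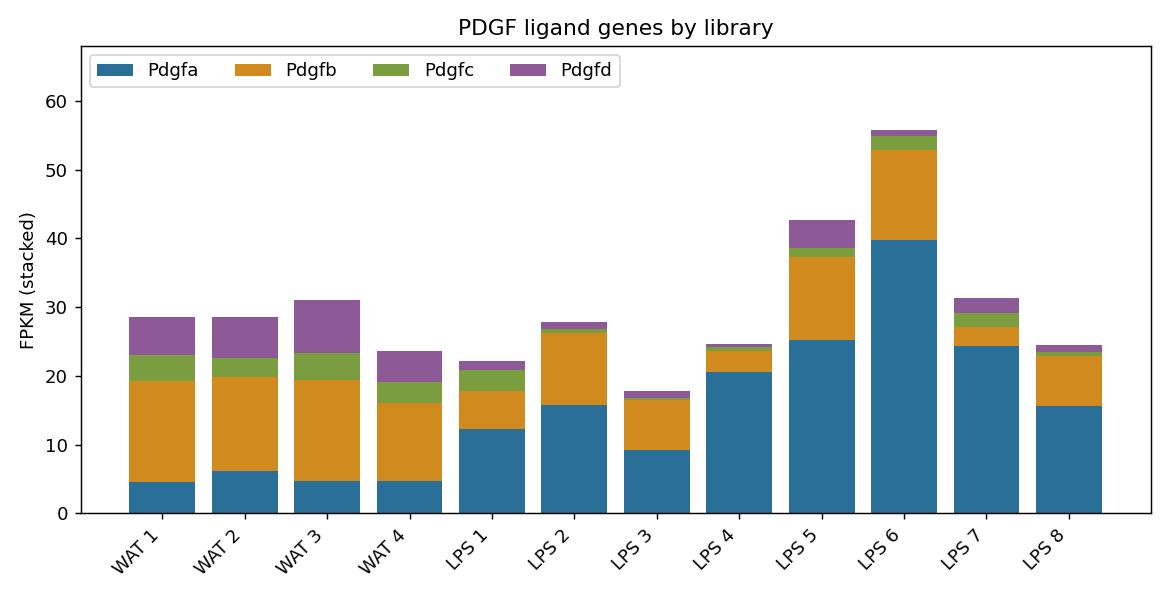
FPKM of the 4 PDGF ligand genes stacked for each of the 12 libraries. The bars of WAT reach 23.6 to 31.0 FPKM with Pdgfb as the largest part, and the bars of LPS reach 17.8 to 55.8 FPKM with Pdgfa as the largest part in each.

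The order of the members by level thus changed. In WAT, Pdgfrb (20.3 to 27.2 FPKM) and Pdgfra (18.8 to 24.2 FPKM) overlapped at the top, Pdgfb followed, Pdgfd and Pdgfa overlapped below it, and Pdgfc (2.78 to 3.86 FPKM) was last. In LPS, Pdgfrb stood alone at the top, and Pdgfa followed with a range that overlapped that of Pdgfb. Pdgfd, Pdgfc and Pdgfra overlapped at the bottom, all at 4.04 FPKM or less. Spread between libraries was wider in LPS for each member: the coefficient of variation ran from 41.5% (Pdgfrb) to 102% (Pdgfra), against 11.7% (Pdgfra) to 22.4% (Pdgfd) in WAT.

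Among the 8 tumours the members did not move together beyond the correction for 15 pairs. The pair with the highest r was Pdgfd and Pdgfra, with Pearson r = 0.784 (exact permutation p = 0.00739, adjusted p = 0.111, n = 8) and Spearman rho = 0.571 (exact permutation p = 0.151). Without the 2 libraries farthest from the median of Pdgfd, r was 0.320, so the relation rests on those libraries. Without LPS 8 this pair passed (r = 0.889, adjusted exact permutation p = 0.0476), and without LPS 1 Pdgfa and Pdgfc passed (r = 0.863, adjusted exact permutation p = 0.0286, against r = 0.402 over all 8). Since LPS 2 and LPS 5 stood apart in Pdgfrb, its pairs were computed over the other 6 tumours. The strongest there was Pdgfc, at r = -0.789 (exact permutation p = 0.0806, adjusted p = 0.604, n = 6) and Spearman rho = -0.829 (exact permutation p = 0.0583). Without the 2 farthest libraries that r was -0.388.

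Age within the tumours, 9 to 12 months, was called for none of the members. In limma 0 of 13280 rows passed at an adjusted p below 0.05 (0%), and 1.72% had an unadjusted p below 0.05. Pdgfb had the steepest slope of the members, -0.48 ± 0.17 on the log2 scale per month (SE, n = 8; limma unadjusted p = 0.0195, adjusted p = 1.00). The slope of Pdgfra was 0.37 ± 0.24 per month (95% interval -0.17 to 0.91), that of Pdgfrb 0.16 ± 0.25 (-0.41 to 0.74) and that of Pdgfa -0.04 ± 0.21 (-0.51 to 0.42). Those of Pdgfc and Pdgfd were 0.05 ± 0.20 and 0.11 ± 0.18 per month.

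Pericyte markers were higher in LPS, as Pdgfrb was, and fibroblast and progenitor markers were mostly lower, as Pdgfra was. The smooth muscle list, given below, had 1 gene higher and 1 lower (median log2 difference -0.37). Over all rows tested, 18.9% were called higher and 27% lower. All 9 genes of a pericyte list were higher in LPS (limma, adjusted p below 0.05), with a median log2 difference of 5.20 against -0.05 over all rows; the list was drawn up with earlier results of these data known. Their sum was 212 to 229 FPKM in the WAT libraries; in the tumours it reached from 3766 (LPS 5) to 7855 FPKM (LPS 4). LPS 2, the tumour with the least Pdgfrb, held 5322 FPKM of that sum, within the range of the other tumours, and LPS 5, the next in Pdgfrb, held the least. Of 10 fibroblast and progenitor markers 9 were lower (median log2 difference -3.64), and their sum lay between 3206 and 4784 FPKM in WAT, and between 520.0 (LPS 7) and 2054 FPKM (LPS 1) in LPS. At an unadjusted p below 0.05 in limma all 10 were lower and 0 higher. LPS 7 held 2.54 FPKM of Pdgfra beside the lowest of these sums, and LPS 2 held 0.0765 FPKM of Pdgfra beside a sum of 753 FPKM. All 6 Schwann cell markers were lower too, with sums of at least 132 FPKM in WAT, and at most 10.4 FPKM in LPS. The part of these cell types in the receptor values was not tested.

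**Figure D4:**
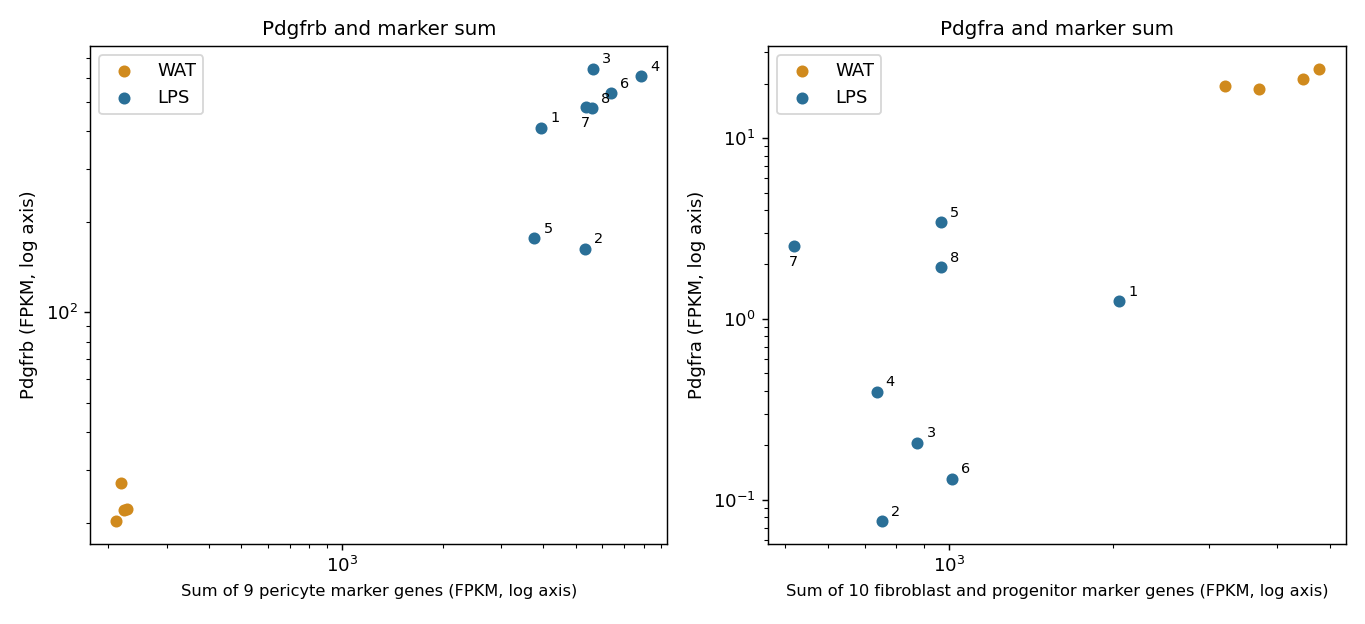
Left, Pdgfrb against the sum of 9 pericyte marker genes, and right, Pdgfra against the sum of 10 fibroblast and progenitor marker genes (FPKM, all axes logarithmic), 1 point per library with LPS replicates numbered. Both sums part the groups as the receptor genes do; within LPS, LPS 2 (left) has the lowest Pdgfrb at a middling sum, and LPS 7 (right) has a high Pdgfra at the lowest sum.

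Marker genes of cells known as sources of the ligands were measured as well, beside all-row shares of 18.9% called higher and 27% called lower. Of 8 endothelial markers in rows of their own, 5 were lower and 2 higher in LPS, and their sum was 214 to 315 FPKM in WAT, against 243 to 423 FPKM in LPS. The higher ones were Esam (37.2 and 154 FPKM) and Emcn (10.8 and 54.4 FPKM), which carry much of the LPS sum, and the lower ones were Pecam1, Cdh5, Kdr, Tek and Cldn5. Smooth muscle markers (7 genes) summed to 99.8 to 153 FPKM and 118 to 233 FPKM, with 1 of the 5 tested higher and 1 lower. Macrophage markers (7 genes) summed to 195 to 286 FPKM and 229 to 771 FPKM, with 2 higher and 0 lower in limma (4 and 0 at an unadjusted p below 0.05). Among platelet genes, Itga2b, an integrin subunit, was lower (3.58 and 1.73 FPKM; limma adjusted p = 0.0144), though not without WAT 2 (adjusted p = 0.0568). Pf4, platelet factor 4, was not called (32.9 ± 6.89 FPKM, n = 4, and 32.6 ± 27.3 FPKM, n = 8; SD). LPS 5, with the most Pdgfd and the second most Pdgfb and Pdgfa of the tumours, also held the most Pf4, at 91.9 FPKM. It held the most Ppbp as well, another platelet chemokine gene and below the filter, at 14.3 FPKM. LPS 6, with the most Pdgfa and Pdgfb (39.7 and 13.2 FPKM), was among the other tumours, which held 11.8 to 49.2 FPKM of Pf4. The part of these cells in the ligand values was not tested.

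Genes that activate or bind PDGF ligands were called about as often as all rows. Of 11 listed, 9 in rows of their own passed the filter of 1 FPKM in at least 4 libraries, and 1 was higher and 3 lower in LPS, 44.4% against 46% of all rows. Plat, the tissue plasminogen activator, which cuts the latent C chain, had a WAT mean of 8.02 ± 1.78 FPKM (SD, n = 4) and an LPS mean of 82.3 ± 42.0 FPKM (SD, n = 8), with every tumour at 36.6 FPKM or more and every WAT library at 9.76 FPKM or less (log2 difference 3.06 ± 0.36 SE; limma adjusted p = 1.43e-05). Plau, the urokinase that acts on the D chain, was not called, with means of 7.67 and 9.67 FPKM. Pcsk6 and Pcsk5, proprotein convertases, fell, Pcsk6 from 13.3 to 1.41 FPKM and Pcsk5 from 5.67 to 1.46 FPKM. Furin, the convertase that processes the A and B chains, had means of 23.7 and 16.3 FPKM without a call (limma adjusted p = 0.0526). It was called lower without LPS 3, LPS 6 or LPS 7 (limma adjusted p = 0.0299, 0.0372 and 0.0244). Pdgfrl, a receptor-like gene, was lower (5.53 and 2.47 FPKM), and Sparc, a matrix protein that binds the B chain, was not called (984 ± 103 and 1310 ± 488 FPKM, SD, n = 4 and n = 8). Sparc was called higher after quantile normalization (log2 difference 0.78, limma adjusted p = 0.0199, against 0.34 as deposited).

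Of 28 adaptors and effectors that act below the receptors, 12 were higher and 5 lower in LPS, 60.7% called against 46% of all rows, with a median log2 difference of 0.21. Src, a tyrosine kinase recruited to activated receptors, rose from a WAT mean of 5.38 ± 0.390 (SD, n = 4) to an LPS mean of 61.7 ± 19.0 FPKM (SD, n = 8), with LPS 5 the lowest tumour at 23.2 FPKM (log2 difference 3.22 ± 0.27 SE; limma adjusted p = 6.82e-07). Gab1, a docking protein, rose from 5.48 to 24.1 FPKM. The catalytic subunits of phosphoinositide 3-kinase went apart, Pik3ca from 15.6 to 36.2 FPKM and Pik3cb from 8.10 to 3.83 FPKM, and the regulatory subunit Pik3r1 was not called (81.1 and 75.7 FPKM). The kinases Akt1 and Akt2 went apart too, Akt1 from 48.2 to 96.8 FPKM and Akt2 from 89.2 ± 8.88 to 22.5 ± 4.70 FPKM (SD, n = 4 and n = 8). Stat5a fell from 22.1 to 4.41 FPKM and Stat5b from 18.5 to 7.03 FPKM, while Stat3 rose from 39.7 to 67.0 FPKM. Without WAT 1 and WAT 4 the adjusted p in limma was 0.0544 for Stat3 and 0.154 for Pdgfrl. Plau, Furin, Pdgfrl, Pik3ca, Pik3cb, Akt1, Stat5b and Stat3, and the platelet and endothelial genes, were picked after their values were seen.

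Negative regulators were called in one direction. Of 15 tested, 6 were higher and 0 lower (median log2 difference 0.43), a share of 40.0% against 46% of all rows called either way. By direction, 18.9% of all rows were called higher and 27% lower. At an unadjusted p below 0.05 in limma, 7 were higher and 1 lower. Spry4 and Spry2, Sprouty inhibitors that receptor tyrosine kinase signalling itself induces, rose, Spry4 from 7.81 ± 1.55 to 75.1 ± 33.3 FPKM and Spry2 from 5.66 ± 0.562 to 31.1 ± 15.2 FPKM (SD, 4 and 8 libraries; limma adjusted p = 2.16e-06 and 0.000208). Every tumour held at least 40.1 FPKM of Spry4, and no WAT library more than 9.96 FPKM. Grb10, an adaptor that dampens receptor signalling, was not called, at 37.1 ± 5.32 and 71.9 ± 36.3 FPKM (SD, n = 4 and n = 8). Without LPS 1, which held 13.7 FPKM of Grb10, it was called (limma adjusted p = 0.0176).

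Of 9 tested genes that growth factors induce early in cultured cells, 2 were higher and 0 lower in limma (4 and 0 at an unadjusted p below 0.05). These calls are 22.2%, against 46% of all rows, 18.9% higher and 27% lower. Ccl2, a chemokine, rose from a mean of 2.54 ± 1.45 to one of 22.5 ± 22.8 FPKM (SD, 4 and 8 libraries; limma adjusted p = 0.00353). Its LPS mean leans on LPS 5 at 74.8 FPKM, and without WAT 1 and WAT 4 the adjusted p was 0.0701. Ier2 measured 9.06 and 20.7 FPKM (limma adjusted p = 0.0222), and without WAT 1, WAT 3 or WAT 4 its adjusted p was 0.0580, 0.0557 and 0.0537. Junb was not called, with 296 FPKM in LPS 6, while the other tumours held 10.0 to 47.0 FPKM, except with array quality weights (limma adjusted p = 0.0490).

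**Figure D5:**
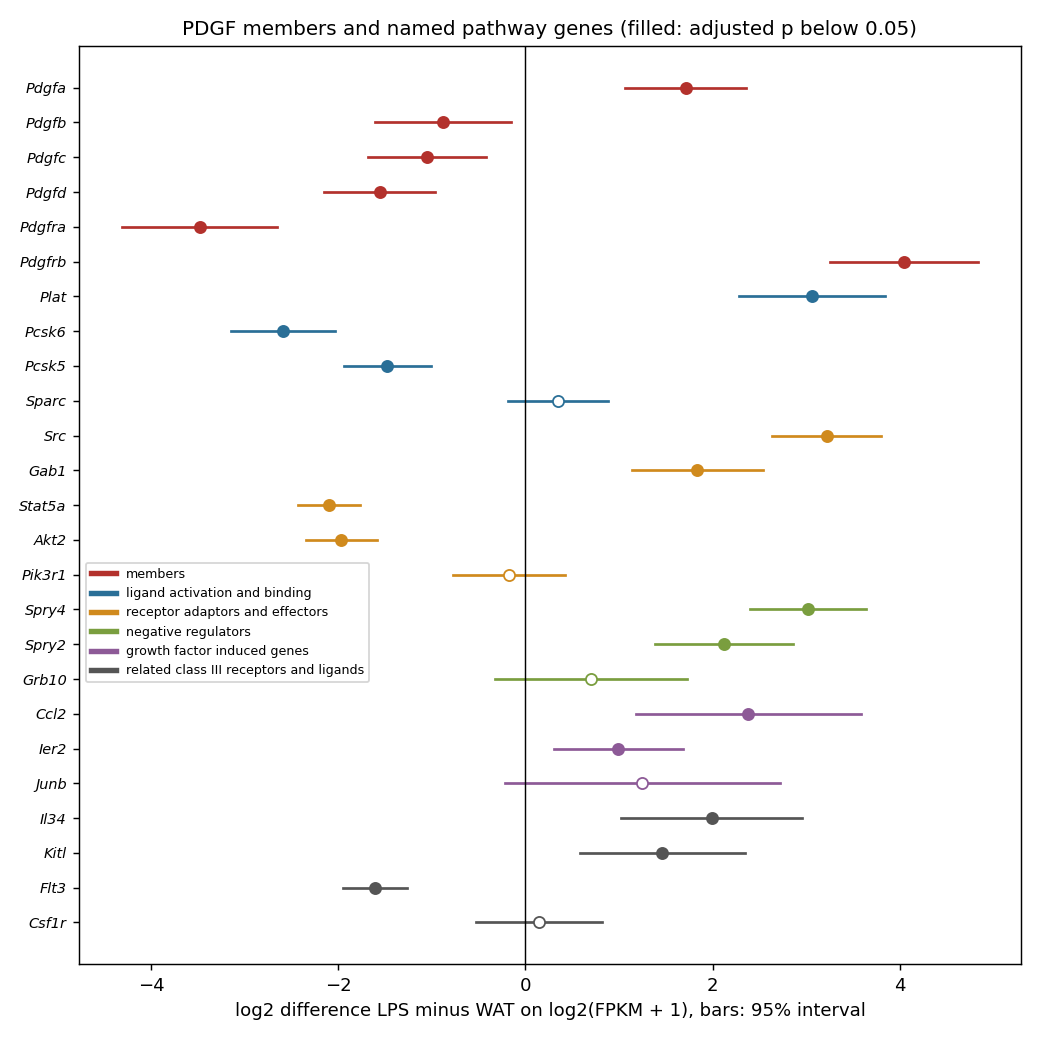
Log2 difference LPS minus WAT on log2(FPKM + 1) with its 95% interval for the 6 PDGF members and the named genes of 5 pathway groups, filled where the limma adjusted p is below 0.05. Pdgfrb lies at 4.04 and Pdgfra at -3.48, and Src, Plat and Spry4 lie above 3.

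The receptors of the same class include Kit and Csf1r, chromosomal neighbours of the PDGF receptor genes. Kit lies 377 kb from Pdgfra on chromosome 5. Kdr, a VEGF receptor gene outside that class, lies 276 kb beyond Kit. Kit measured 5.34 ± 0.753 and 4.12 ± 3.55 FPKM (SD, n = 4 and n = 8) and was not called, except without LPS 5, where it stood highest at 11.8 FPKM (limma adjusted p = 0.0463), and with array quality weights (adjusted p = 0.0281). Kdr was lower, with means of 36.6 and 10.3 FPKM (log2 difference -1.81 ± 0.25 SE), against -3.48 ± 0.38 for Pdgfra. Csf1r, 15.5 kb from Pdgfrb on chromosome 18, was not called (21.4 ± 2.70 and 26.1 ± 13.3 FPKM, SD, n = 4 and n = 8; log2 difference 0.15 ± 0.31 SE), against 4.04 ± 0.36 for Pdgfrb. The deposited locus of the Csf1r row ran from 61105572 to 61177050, past the end of Csf1r at 61132149. The differences between neighbours were not tested. Of the 6 tested members of the class and its ligands, Il34, a ligand of Csf1r, and Kitl, the ligand of Kit, were higher (6.41 and 33.1 FPKM; 21.4 and 69.6 FPKM), and Flt3 was lower without overlap (2.99 and 0.298 FPKM, 10.0-fold apart). These 3 calls of 6 are 50%, against 46% of all rows. The call for Kitl was lost without WAT 1 and WAT 4 (limma adjusted p = 0.0970) and with a replicate block (adjusted p = 0.0996). In that block only LPS 1 to LPS 4 are set against WAT.

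The genes whose levels followed each member most closely over the 8 tumours were found by Pearson r of log2(FPKM + 1) among the 12662 single-name rows that reached 1 FPKM in 4 or more tumours (12663 with the row of Pdgfra). With so many rows and 8 libraries, values near 1 are found for any gene, and no test is given. For Pdgfra these were Igfbp6 (r = 0.978), an IGF-binding protein, Pi16 (0.971), a marker of interstitial progenitors, and Plin4 (0.946), a lipid droplet protein. Those genes also had higher means in WAT than in LPS, at 44.3 and 1.21, 30.7 and 1.62, and 189 and 1.09 FPKM. Over the tumours they spanned only 0.303 to 2.62, 0.112 to 5.60 and 0.699 to 1.45 FPKM, low values like those of Pdgfra. For Pdgfrb, over all 8 tumours and so across the clusters it forms, they were Ppm1k (0.977), A230050P20Rik (0.973) and Rab5b (0.970), of which Rab5b had like means in WAT and LPS (25.7 and 25.1 FPKM). For Pdgfa they were Skil (0.967), Nedd9 (0.949) and the immediate early receptor gene Nr4a1 (0.947). For Pdgfb they were Metap2 (0.944), Phlda1 (0.942) and Cd93 (0.935), an endothelial surface receptor. For Pdgfc they were Ctsa (0.967), the lysosomal cathepsin A, Npl (0.955) and Rgs10 (0.955), and for Pdgfd Fbln5 (0.966), a protein of elastic fibres, Rbm17 (0.963) and Srgn (0.955).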

How the data were processed

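RNA of 12 libraries was measured after depletion of ribosomal RNA and stranded library preparation, per the labels' protocols. The authors deposited FPKM values, 1 per gene locus and library. The submitters' processing notes name Trimmomatic, Bowtie2, TopHat2 2.1.0, Cufflinks 2.2.1, Cuffdiff 2.2.1 and GRCm38, with no role or order. Fragment totals are not in the table, so no counting interval is given; the value of about 1 fragment is the 5th percentile of non-zero FPKM times length over genes longer than 2000 bases. The test took 14821 of 37750 rows, those reaching 1 FPKM in 4 or more libraries, and used limma 3.58.1 (R 4.3.3) on log2(FPKM + 1), with trend and robust empirical Bayes, two-sided, Benjamini-Hochberg adjusted over all rows, without covariates. Age was fitted as a slope within LPS. Ratios and pairs of members used exact permutation (40320 pairings over 8 tumours, 720 over 6). A gene counted as falling into clusters when the widest gap took over 0.5 of its log2 range and left at least 2 tumours on each side. Joined rows (828 in the table) were left out of list counts, except that of Pdgfra. Coordinates are those of GENCODE M21 on GRCm38. The fits were tested on simulated data. The members, lists and tests were chosen with earlier results of these data known. Named pathway genes were the 2 largest called differences each way per group, the most abundant uncalled gene of each, Kit, Kdr and Csf1r, and the 3 genes most like each member; Akt1, Stat3 and the others stated in the text were added. Alternatives were other pseudocounts (0.1 and 0.5), filters, scalings, array weights, plain empirical Bayes, a replicate block, left-out libraries and an exact permutation test per gene. Replicate numbers did not pair the libraries. Numbers 5 to 8 occur in LPS only, so the block sets LPS 1 to LPS 4 against WAT. The summed platelet marker list is not reported here.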

Additional observations from a re-analysis of the deposited data

Results flagged for a closer look

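In 82 groups of 4 or 8 libraries, 7 had a highest library set apart from the rest by a gap above Dixon's 95% critical value, and chance flags about 1 in 20. Pdgfa measured 6.21 FPKM in WAT 2, against 4.53 to 4.70 FPKM in the other WAT libraries. Pdgfd measured 4.04 FPKM in LPS 5, where the other tumours held 0.536 to 2.09 FPKM. Sparc reached 2374 FPKM in LPS 3, where the other tumours held 859 to 1498 FPKM. Pik3r1 reached 96.4 FPKM in WAT 1, against 74.5 to 77.5 FPKM. Ccl2 reached 74.8 FPKM in LPS 5, against 6.43 to 31.6 FPKM. Junb reached 296 FPKM in LPS 6, against 10.0 to 47.0 FPKM. Pf4 reached 91.9 FPKM in LPS 5, against 11.8 to 49.2 FPKM.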

How the results depend on the processing

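The directions of all 6 members between LPS and WAT held in each of 24 alternatives. The number lower was 4, and 2 without WAT 1 and WAT 4, where Pdgfb and Pdgfc were not called; leaving out 1 library gave 3 to 4. Both ratios that were called held in all 14 alternatives. That of the receptor genes had to hold, since Pdgfrb and Pdgfra each part the groups. The third ratio, Pdgfc over Pdgfd, was called in none. The number of pairs called within LPS was 0, and 0 to 1 when 1 tumour was left out. Of 67 tested pathway genes 23 were higher and 9 lower, 47.8% called against 46% of all rows. Without WAT 1 and WAT 4 the counts were 16 and 7, for which no all-row share is given. No sign of a called pathway gene turned; Pik3r1, uncalled, turned to 0.011 after quantile normalization, and Csf1r, uncalled, ran from -0.0088 (without LPS 1) to 0.25 when 1 library was left out. When 1 tumour was left out, uncalled age slopes ran from -0.12 to 0.23 for Pdgfa (above 0 without LPS 1 or LPS 6), from -0.038 to 0.28 for Pdgfc (below 0 without LPS 1 or LPS 2) and from -0.12 to 0.35 for Pdgfrb (below 0 without LPS 2). Furin was also called with array quality weights (adjusted p = 0.0110), and Itga2b was not after quantile normalization (0.0719); alternatives for Itga2b, Pf4, Esam and Emcn were added after seeing the data. The cause of these shifts was not tested. Under quantile normalization the all-row median went from -0.05 to 0.11, and the share of calls that were lower from 58.8% to 44.8%, with Pdgfrb at 4.31 and Pdgfra at -3.34. With a replicate block Pdgfrb was at 4.08 and Pdgfra at -3.94, and 23 pathway genes were higher and 11 lower. No all-row share is given for those counts. LPS 5 to LPS 8 share their numbers with no WAT library, so the block sets only LPS 1 to LPS 4 against WAT. Libraries with the same number had correlations of deviations from -0.02 to 0.09. Among all 8 tumours, 1 of 4 WAT libraries correlated best with the tumour of its own number. Over the 67 tested pathway genes the block lost 2 calls and added 4; among the genes named in the results, Kitl was lost and Furin was called lower (adjusted p = 0.0163). Few fragments lie behind the lowest value of Pdgfra, about 9.97 in LPS 2. Fragments were not estimated for Pdgfc and Pdgfd, whose tumour values are also low.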
